A study of Mus musculus with 24 samples.

Results

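The 40 genes described here carry glucose into the cell, break it down to pyruvate and lactate, or belong to the transcriptional response to low oxygen, and their RNA was followed through pluripotent cells of the mouse in culture and in the embryo. They were taken as a fixed list of symbols: 23 genes of glycolysis (transport, enzymes, lactate handling and regulators) and 17 other genes of the Hif response, of 20616 named genes represented on the arrays. The members were not chosen by a threshold on the values. RNA came from 12 groups with 2 single-colour Agilent arrays each. Of the epiblast stem cell (EpiSC) lines, 129Ba1, 129Ba2 and BNa17 were established in the presence of a Wnt signalling inhibitor, and 129C1 and Wt1 by the original protocol. Line 129C1 was also treated with IWP2, a compound that blocks the secretion of Wnt proteins. Mouse embryonic stem cell (mESC) line J1 was grown with 2i, a pair of kinase inhibitors that holds cells in the naive state, and lines J1 and R1 were grown in conventional medium. The embryonic groups were epiblast at E5.5 and E6.5 and ectoderm at E7.5, dissected by hand. All cultured lines had grown on feeder layers and were separated from them before RNA was taken. Oxygen and glucose in the cultures are not given in the sources used here. Nor is it given whether the 2 arrays of a group came from separate cultures or dissections. The p-values of the IWP2, 2i, stage and within-slide comparisons therefore measure the spread between arrays, which may be technical. Between kinds of line, they measure the spread between line means. For lines against embryonic tissue, both kinds of spread are pooled.

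Glycolysis turns glucose into pyruvate, which is either reduced to lactate and exported or passed to the mitochondria. At normal oxygen the prolyl hydroxylases of the Egln family mark Hif1a and Epas1 for destruction through Vhl. When oxygen is short these factors persist and switch on many glycolytic enzymes, Egln3 itself, and genes of blood vessel growth, mitophagy and collagen processing. Hif factors are regulated largely as proteins, so RNA levels do not show their activity. Primed EpiSCs are known for a strong reliance on glycolysis, whereas naive mESCs use both glycolysis and respiration.

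Levels are given as log2 of the processed signal relative to the 75th percentile of the same array, so that 0 is that percentile and 1 unit is a 2-fold step. Each gene is represented by its brightest probe, and levels are compared only within a gene. A gene is called changed when its limma adjusted p lay under 0.05 over all genes tested and the difference was at least 2-fold. Errors of differences are standard errors, and those of group means are SDs. On each array 36.7 to 53.2% of probes were well above background, the 75th percentile of the signal lay between 69.3 and 253 intensity units, and replicate arrays correlated at 0.966 to 0.989 across genes. The number of arrays limits the precision. The arrays lay on 6 slides, and groups on different slides are compared in most contrasts below. The pluripotency markers Pou5f1, Sox2 and Nanog were well above background on both arrays of every group, and the 7 fibroblast markers of feeder cells were so in every cultured line.

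Hif factors bind DNA at a short core, ACGTG or GCGTG. Both letter strings were searched on both strands in the 250 bases before each gene's start, in RefSeq promoters on GRCm38.p6. The table matched 36 of the 40 genes. At least 1 match lay before 1 or more listed starts in 33 of the 36 (91.7%), against 41.5% of 27025 genes. Counted by start, 77.8% of the members' 54 windows held a match, against 38.6% of 32851. The members' promoters were also richer in G and C, with a median of 60.4% against 52.4%, and the part of this in the difference was not tested. A match is not a binding site. The 5 promoters below belong to genes on which the results turn: Slc16a3, Bnip3 and P4ha1, higher in EpiSCs than in mESCs, Pdk1, lower there, and Ldha, which was not called in that comparison. Each runs 5′ to 3′ on the gene's own strand, with matches in capitals (a match on the opposite strand reads CACGT or CACGC here, and overlapping matches run together).
Slc16a3, chr11:120948817-120949066, plus strand, 2 matches: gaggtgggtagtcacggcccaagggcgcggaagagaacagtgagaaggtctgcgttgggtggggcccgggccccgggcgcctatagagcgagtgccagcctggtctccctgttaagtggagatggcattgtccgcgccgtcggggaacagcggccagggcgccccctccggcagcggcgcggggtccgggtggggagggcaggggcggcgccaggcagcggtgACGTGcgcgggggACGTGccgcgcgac
Bnip3, chr7:138909507-138909756, minus strand, 5 matches: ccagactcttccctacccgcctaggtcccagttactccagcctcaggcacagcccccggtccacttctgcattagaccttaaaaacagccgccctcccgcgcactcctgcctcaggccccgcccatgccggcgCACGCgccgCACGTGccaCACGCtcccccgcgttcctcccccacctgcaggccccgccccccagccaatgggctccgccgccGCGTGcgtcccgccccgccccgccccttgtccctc
P4ha1, chr10:59323046-59323295, plus strand, 3 matches: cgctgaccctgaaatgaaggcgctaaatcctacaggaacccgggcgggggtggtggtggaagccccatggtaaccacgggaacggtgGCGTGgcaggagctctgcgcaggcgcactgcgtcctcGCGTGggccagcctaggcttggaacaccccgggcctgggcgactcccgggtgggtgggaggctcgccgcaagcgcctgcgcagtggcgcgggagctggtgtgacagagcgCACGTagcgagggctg
Ldha, chr7:46845554-46845803, plus strand, 5 matches: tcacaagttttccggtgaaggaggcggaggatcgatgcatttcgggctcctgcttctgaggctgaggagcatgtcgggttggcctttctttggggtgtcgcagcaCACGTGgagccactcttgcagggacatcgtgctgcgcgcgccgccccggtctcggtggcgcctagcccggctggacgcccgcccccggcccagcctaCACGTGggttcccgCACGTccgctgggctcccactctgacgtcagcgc
Pdk1, chr2:71872974-71873223, plus strand, 1 match: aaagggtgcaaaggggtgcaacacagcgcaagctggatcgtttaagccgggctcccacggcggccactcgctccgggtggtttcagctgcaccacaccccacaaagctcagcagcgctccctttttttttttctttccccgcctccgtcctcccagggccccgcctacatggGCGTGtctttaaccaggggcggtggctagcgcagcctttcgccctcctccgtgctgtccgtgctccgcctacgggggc
For each gene the start with the most matches is shown. There Bnip3 and Ldha held 5 matches each and Pdk1 held 1, while a second listed start held 1 for Ldha and 0 for Pdk1. Match counts were not tested against expression.

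Of the 40 genes, 37 were well above background on all 24 arrays, including all 23 glycolysis genes. Mxi1, a Myc antagonist, was above background on 0 arrays and was not tested. Car9 was above background on 15 arrays and Egln1 on 17. Across the 12 groups the mean level of a glycolysis gene spanned a median of 1.82 log2 units and that of the 14 other Hif genes 2.90, against 1.44 over the 10130 genes above background on all arrays. The narrowest spans belonged to enzymes of the main chain, 0.74 for Gapdh, 0.74 for Pgam1 and 0.78 for Gpi1. The widest among genes above background on all arrays were those of Ndufa4l2 (4.25), which lowers respiratory chain activity, Ddit4 (4.09), an inhibitor of mTOR signalling, Eno2 (3.98), the neuronal enolase, and Adm (3.62), a vasodilator peptide. Car9, a cell surface carbonic anhydrase, spanned 5.54 from E6.5 epiblast to IWP2-treated 129C1, but lay below background on all 6 embryo arrays.

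**Figure D1:**
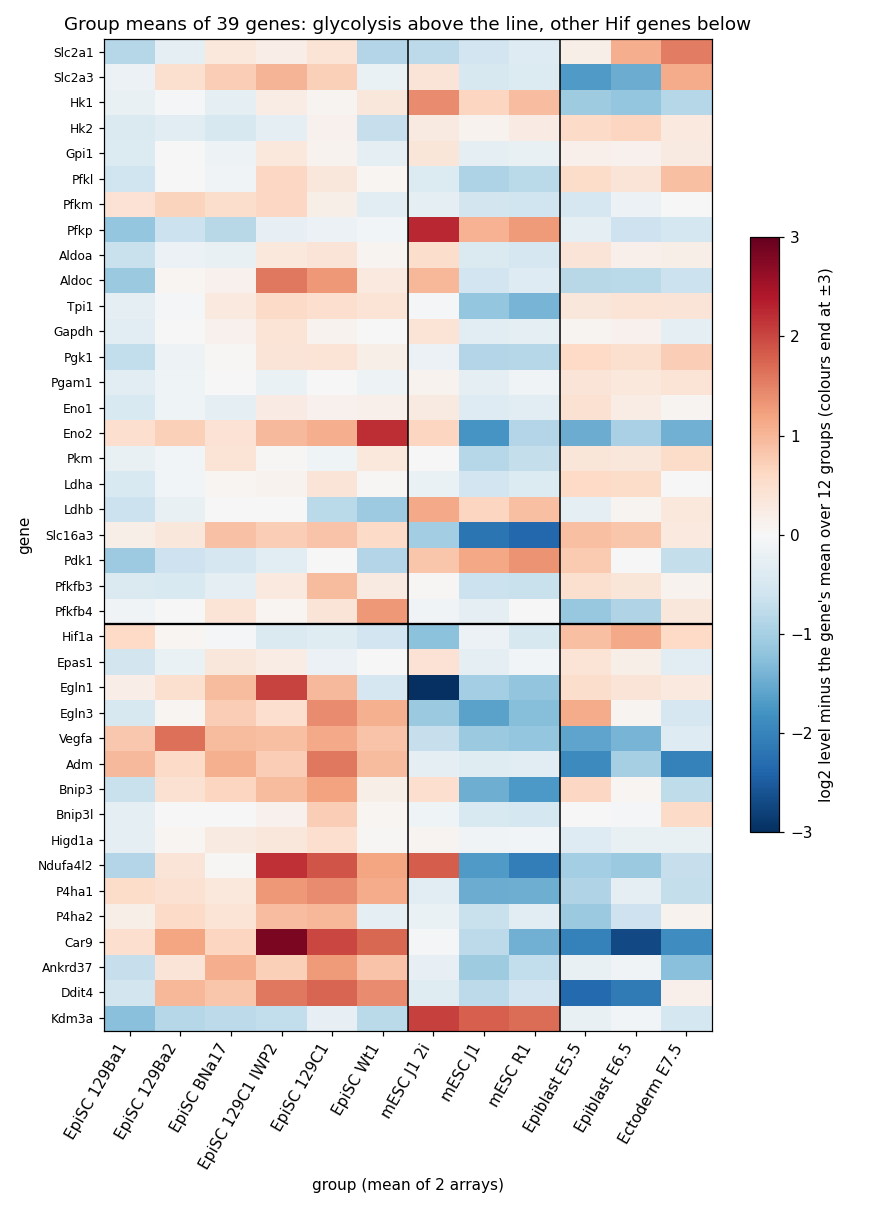
Mean log2 level of 39 members in the 12 groups (columns), each gene drawn relative to its mean over groups. Rows are the glycolysis genes and, apart from them, the other Hif genes. Car9 (5.54) and Egln1 (5.11), which fall below background in some groups, span the most log2 units, followed by Ndufa4l2, Ddit4, Eno2 and Adm, while Gapdh, Pgam1 and Gpi1 hardly vary.

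The first comparison asks how primed and naive cells in culture differ. EpiSC lines had more RNA for the lactate exporter Slc16a3 and for the Hif-response genes Vegfa, P4ha1, Egln3, Bnip3 and Ndufa4l2, among others, than mESC lines did. They had less RNA for Pdk1, which inhibits pyruvate dehydrogenase, for Kdm3a, a histone demethylase, and for single isozymes of phosphofructokinase and lactate dehydrogenase. Most enzymes of the main glycolytic chain were not called. With 5 EpiSC lines against 2 mESC lines, 11 of 39 members were higher and 4 lower, while 25.1% of all genes tested were called (12.9% higher and 12.1% lower). Among the glycolysis genes 3 rose and 3 fell of 23, with a median log2 difference of 0.48. Among the other Hif genes 8 rose and 1 fell of 16, with a median of 1.5, beside -0.01 over all genes.

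Slc16a3, which exports lactate, lay at 6.62 to 7.79 on the 10 EpiSC arrays (median 7.10), against 4.41 and 4.40 in J1 and 4.44 and 4.05 in R1. The lowest EpiSC array was far above the highest mESC array, and the difference was 2.83 ± 0.24 (7.12-fold, adjusted p = 0.000262). Its line means averaged 7.15 ± 0.32 in EpiSCs and 4.32 ± 0.11 in mESCs. Tpi1, which interconverts the triose phosphates, was at 6.97 to 7.89 on the EpiSC arrays (median 7.56), against 6.25 and 6.06 in J1 and 6.16 and 5.67 in R1. The groups did not overlap, and the difference was 1.47 ± 0.25 (adjusted p = 0.00468). Eno2 spread widely among EpiSC arrays, from -0.46 to 1.62 (median -0.05), against -3.02 and -2.06 in J1 and -1.91 and -1.43 in R1. Every EpiSC array was higher all the same (2.32 ± 0.51, adjusted p = 0.0119).

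On the falling side, Pdk1 was at 0.16 to 1.62 on the EpiSC arrays (median 0.82), against 2.57 and 2.64 in J1 and 3.01 and 2.58 in R1. It was thus lower on all 10 EpiSC arrays (-1.87 ± 0.30, adjusted p = 0.00335). The platelet-type phosphofructokinase Pfkp averaged 0.26 ± 0.45 in EpiSC lines and 1.99 ± 0.15 in mESC lines (adjusted p = 0.0056), while its partners Pfkm and Pfkl differed the other way by 0.87 and 0.80, under the 2-fold limit (adjusted p = 0.047 and 0.0437). Ldhb, the lactate dehydrogenase subunit that favours pyruvate, averaged 5.49 ± 0.44 in EpiSC lines and 6.82 ± 0.19 in mESC lines (adjusted p = 0.0149). Ldha, the subunit that favours lactate, averaged 9.75 ± 0.31 in EpiSC lines and 9.27 ± 0.10 in mESC lines and was not called (adjusted p = 0.154). The glucose transporter Slc2a1 (difference 0.24, adjusted p = 0.674) and the hexokinase Hk2 (-0.53, adjusted p = 0.118) were not called either. Their arrays overlapped between EpiSCs and mESCs.

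Hif1a was not called (0.27, adjusted p = 0.541). For Epas1 the probes disagreed: the brightest, which stands for the gene in every test, differed by 0.05 (adjusted p = 0.884), while another that was above background on all 24 arrays differed by -4.46 and one above background on 15 by -6.32. No direction is given for it. Both hydroxylases were higher in EpiSCs. Egln3 averaged 1.33 ± 0.77 in EpiSC lines and -0.68 ± 0.23 in mESC lines (adjusted p = 0.0192). Egln1 was well above background on 9 of 10 EpiSC arrays and 0 of 4 mESC arrays and was at least 2.51-fold higher in EpiSCs (adjusted p = 0.0233).

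Vegfa, the main growth factor of blood vessels, was at 1.32 to 2.39 on the EpiSC arrays (median 1.76), against -0.47 and -0.36 in J1 and -0.18 and -0.74 in R1. The gap was wider than the spread of either group (2.21 ± 0.25, 4.63-fold, adjusted p = 0.000914). A second bright Vegfa probe differed by 3.12. Adm averaged 0.79 ± 0.37 in EpiSC lines and -0.58 ± 0.04 in mESC lines (adjusted p = 0.00778). Bnip3, a mitophagy receptor, was at 4.67 to 6.83 on the EpiSC arrays (median 6.13), against 4.25 and 4.06 in J1 and 4.12 and 3.68 in R1. It did not overlap (1.95 ± 0.45, adjusted p = 0.0147), although line 129Ba1, at 4.67 and 5.20, lay close to J1. Its partner Bnip3l was not called (0.59, adjusted p = 0.128). Ndufa4l2 was at 0.96 to 3.85 on the EpiSC arrays (median 2.34), against 0.26 and 0.28 in J1 and 0.50 and -0.70 in R1. The EpiSC lines thus differed among themselves by more than the lowest of them differed from mESCs (2.40 ± 0.67, adjusted p = 0.0289).

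P4ha1, a subunit of the enzyme that hydroxylates collagen, was at -0.89 to 0.57 on the EpiSC arrays (median -0.25), against -2.60 and -2.16 in J1 and -2.11 and -2.61 in R1. All EpiSC arrays were higher (2.24 ± 0.32, adjusted p = 0.00222), whereas its partner P4ha2 was not called (0.88, adjusted p = 0.074). Car9 was well above background on 10 of 10 EpiSC arrays and 1 of 4 mESC arrays. It was called higher in EpiSCs (adjusted p = 0.00723), but the size rests on mESC arrays mostly below background, and with normexp correction the difference was 0.91 and not called. Kdm3a ran the other way, at 1.78 to 2.88 on the EpiSC arrays (median 2.26), against 4.99 and 4.82 in J1 and 4.89 and 4.67 in R1. It had the largest fall of the list (-2.51 ± 0.26, adjusted p = 0.000633).

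**Figure D2:**
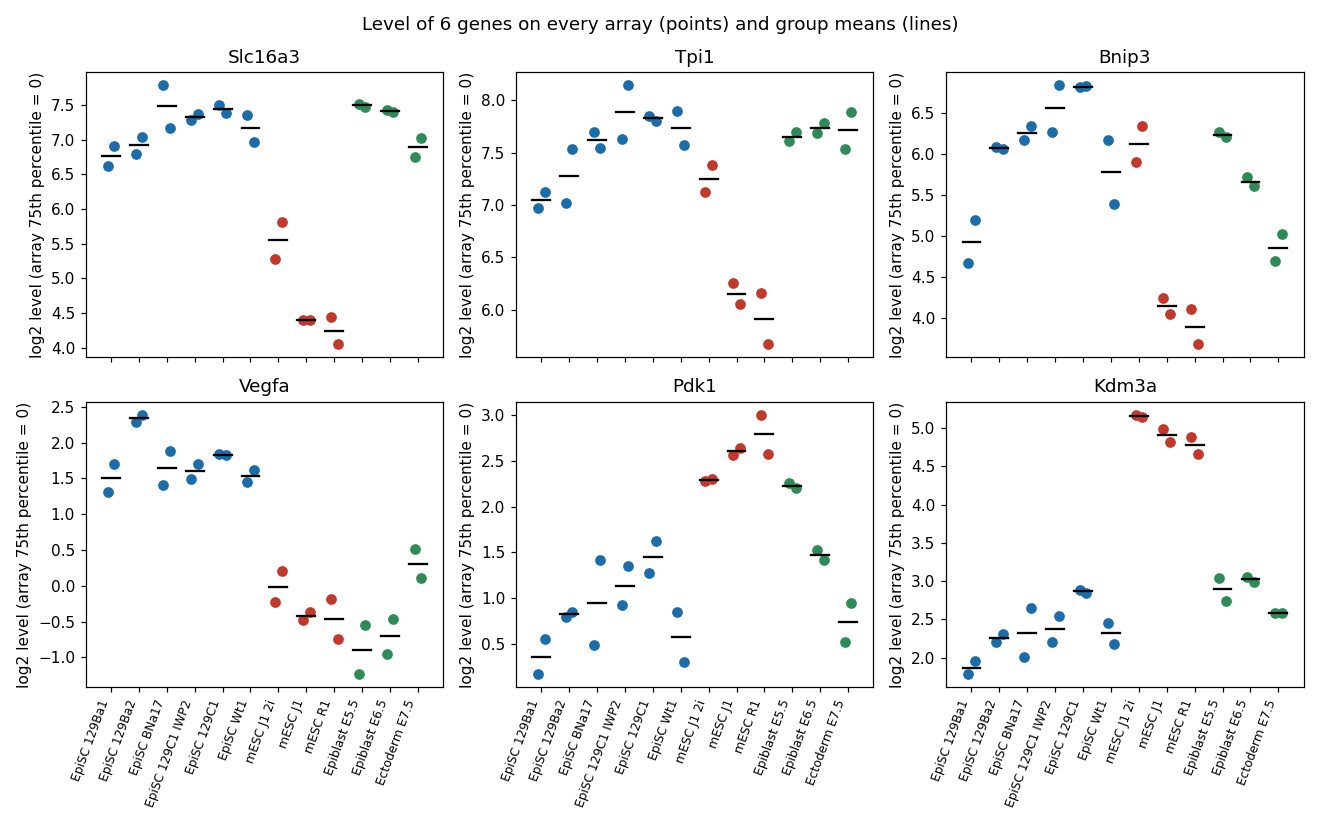
Log2 level of Slc16a3, Tpi1, Bnip3, Vegfa, Pdk1 and Kdm3a on every array of the 12 groups, with points for arrays (blue for EpiSCs, red for mESCs, green for embryonic tissue) and a bar for the mean of the 2. Slc16a3 and Vegfa of EpiSCs lie wholly above those of conventional mESCs, and Pdk1 and Kdm3a wholly below.

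The EpiSC and mESC lines shared no slide, so slide and cell type cannot be told apart here. The 15 calls rest on both mESC lines, and fewer members were called without J1 or without R1. Each of these fits leaves 1 mESC line, so the spread between mESC lines could not enter. The share of all genes called in them was not compared. Over all alternatives none of the 15 differences changed sign. They ran from 1.71 to 2.24 for Bnip3 and from 0.45 to 1.75 for Egln1. Beside these genes, all 7 naive markers were lower in EpiSCs, 3 of 5 primed markers were higher, 0 of 7 feeder markers were called (median difference 0.74), and 4 of 6 immediate early genes were lower (median -3.12). Their part in the result was not tested. In bulk RNA, fewer cells of a type and less RNA per cell cannot be told apart.

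Related lists, chosen with earlier results of these data known, gave a mixed picture for the same lines. Of 38 further Hif genes 7 were higher and 3 lower, led by Vldlr, a lipoprotein receptor (3.27 ± 0.31, adjusted p = 0.000389), and Stc2, a secreted glycoprotein (2.81 ± 0.76, adjusted p = 0.0252). Of 15 further glycolysis genes 3 were higher and 1 lower. The fall was that of Ldhc, the germ cell lactate dehydrogenase subunit (-4.82 ± 0.71, adjusted p = 0.00259). Among 12 genes between pyruvate and the mitochondria, Mpc1, a subunit of the mitochondrial pyruvate carrier, fell by 2.27 and Pdk2, a partner of Pdk1, rose by 1.25 (adjusted p = 0.000618 and 0.0101). Of 7 pentose phosphate genes only Rpia was called (-1.24 ± 0.24, adjusted p = 0.0079).

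The next comparison asks what 2i medium, which strengthens the naive state, changes within a single line. In J1 cells, 2i medium went with more RNA for Ndufa4l2, Eno2, Bnip3, several glycolytic enzymes and Slc16a3, and with less for Hif1a. Of 39 members 8 were higher in 2i and 2 lower, against 13.0% of all genes called (6.04% higher and 7.00% lower). The glycolysis genes gave 5 rises and 0 falls of 23, with a median difference of 0.69, and the other Hif genes 3 rises and 2 falls of 16, with a median of 0.45, beside -0.05 over all genes. In sign alone, 35 of the 39 lay above 0, beside 7055 of all 15088 genes tested. Members can shift together between arrays, so these signs are not independent observations.

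Ndufa4l2 was at 3.55 and 4.0 in 2i, against 0.26 and 0.28 in J1 without it. The difference of 3.50 ± 0.41 (11.3-fold, adjusted p = 4.93e-05) was the largest among the members. Eno2 was at -0.48 and 0.22 in 2i, against -3.02 and -2.06 without it (2.41 ± 0.30, adjusted p = 9.58e-05), while its partner Eno1 was at 9.36 and 9.30 in 2i, against 8.65 and 8.68. Bnip3 was at 5.90 and 6.34 in 2i, against 4.25 and 4.06 without it, which places it in the range of the EpiSC arrays (1.97 ± 0.26, adjusted p = 0.000148).

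Smaller rises came from the enzymes and from lactate export. Aldoc, the brain aldolase, was at 4.94 and 5.27 in 2i, against 3.73 and 3.36 (1.56 ± 0.42, adjusted p = 0.0149). Pfkp was at 3.03 and 3.17 in 2i, against 1.81 and 1.96 (1.21 ± 0.26, adjusted p = 0.00439). Tpi1 was at 7.13 and 7.38 in 2i, against 6.25 and 6.06 (1.1 ± 0.22, adjusted p = 0.0028), and Slc16a3 at 5.28 and 5.82, against 4.41 and 4.40 (1.15 ± 0.23, adjusted p = 0.00225). In each of these genes both 2i arrays lay above both J1 arrays. P4ha1 rose by 1.17 ± 0.30 (adjusted p = 0.0117).

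Hif1a RNA was at 0.40 and 0.31 in 2i, against 1.28 and 1.56 (-1.07 ± 0.24, adjusted p = 0.00556). The Epas1 probes differed in sign here too (0.71, -0.66 and -0.97). Egln1 is the other gene counted as lower, but it was below background on all 4 arrays and has no fold here. Slc2a1 (-0.19, adjusted p = 0.556), Hk2 (0.18, adjusted p = 0.509) and Ldha (0.36, adjusted p = 0.19) were not called.

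**Figure D3:**
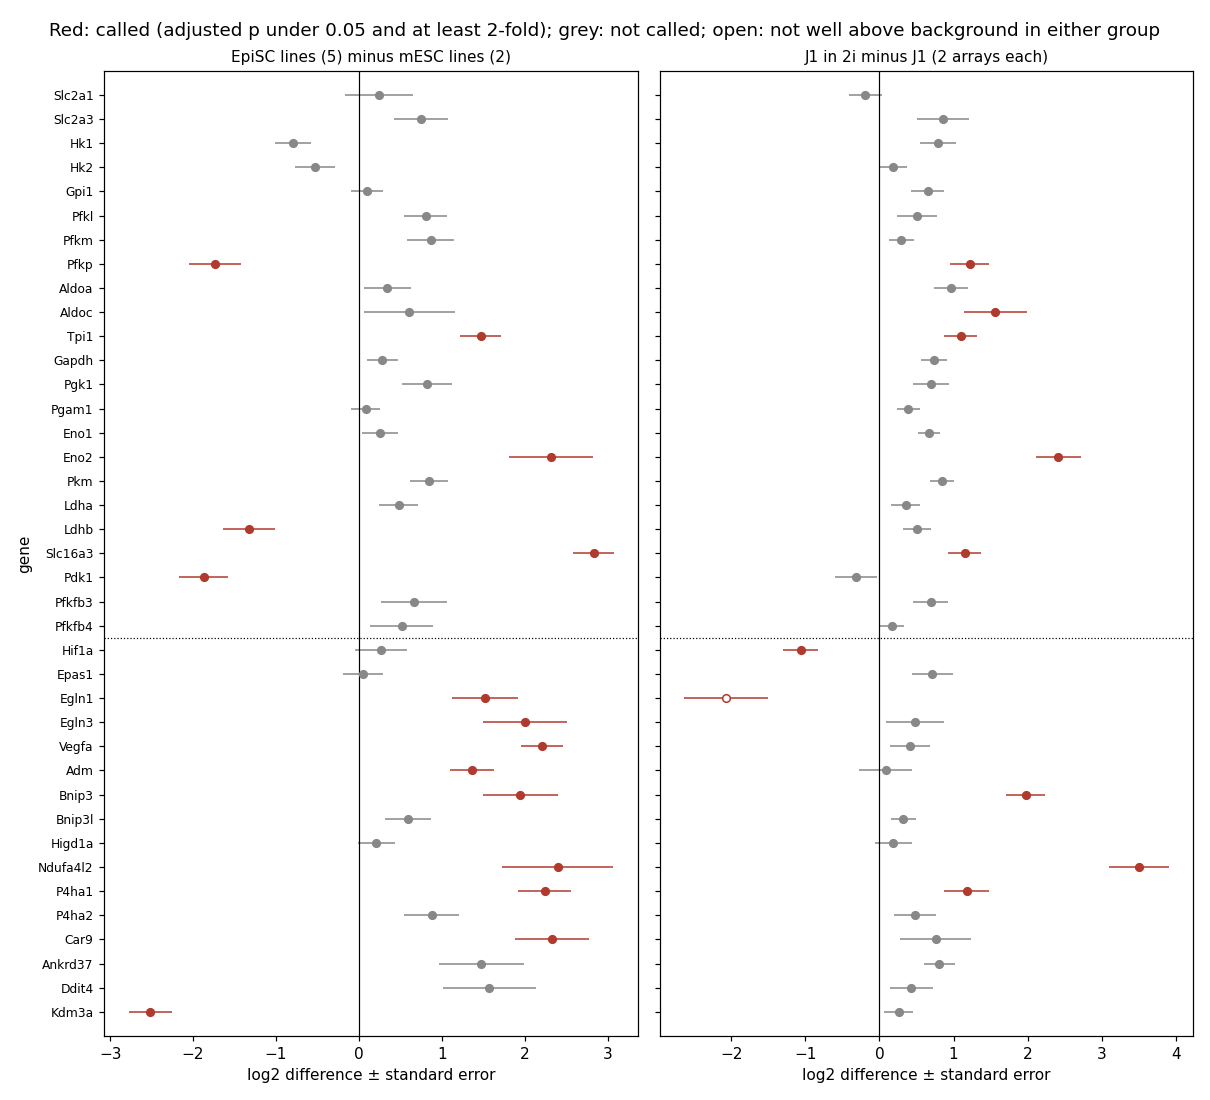
Log2 difference of each tested member with its standard error, for EpiSC lines over mESC lines and for J1 in 2i over J1. Red points are called, grey ones are not, and open circles mark genes below background in both groups. Slc16a3, Ndufa4l2, Eno2 and Bnip3 lie far above 0 in both contrasts, which share the J1 arrays.

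Both contrasts use the J1 arrays, so their differences are not independent and are set side by side only. Slc16a3 differed by 2.83 between EpiSCs and mESCs and by 1.15 between 2i and J1, Ndufa4l2 by 2.40 and 3.50, Eno2 by 2.32 and 2.41, and Bnip3 by 1.95 and 1.97. Vegfa gave 2.21 and 0.41, the second not called, and 3.12 and 1.26 on its second probe. Pfkp gave -1.74 and 1.21, and Kdm3a -2.51 and 0.26, the second not called.

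The 2i arrays lay on a slide of their own, so slide and medium cannot be told apart. Without the second 2i array Aldoc, Egln1, P4ha1, Slc16a3 and Tpi1 were no longer called. With the mean over all probes of a gene Tpi1, Pfkp and P4ha1 were not called. Of the marker lists, 4 of 5 primed markers were lower in 2i, and 0 of 7 naive and 0 of 7 feeder markers were called. Of the further lists, the insulin-responsive glucose transporter Slc2a4 rose by 1.88 ± 0.24 (adjusted p = 0.000123), Pdp2, a phosphatase that activates pyruvate dehydrogenase, by 1.58 ± 0.32 (adjusted p = 0.0029), and Ak4, a mitochondrial adenylate kinase, by 1.08 ± 0.22 (adjusted p = 0.00317), while Fbp1, an enzyme of gluconeogenesis, fell by 1.56 (adjusted p = 0.000355). Of 38 further Hif genes 3 were higher and 0 lower.

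The EpiSC lines differed among themselves mainly by level across the whole list. Line 129Ba1 had the lowest mean of the 5 lines for 26 of 38 members (68.4%), against 23.2% of 11009 genes, and 129C1 had the highest for 24 of 38 (63.2%), against 19.4% of genes. Line 129C1 was lowest for 0 of 38. The median member lay 0.45 below the mean of the lines in 129Ba1 and 0.40 above it in 129C1, while 129Ba2, BNa17 and Wt1 lay at -0.06, 0.03 and 0.07. Members also shifted together between the 2 arrays of a line, so these counts are not independent observations. The second array differed from the first by a median of -0.33 in Wt1 and 0.34 in BNa17, beside -0.05 and -0.01 over 10130 genes. In 129Ba1, 129Ba2 and 129C1 the gap was 0.19, 0.12 and 0.04, beside 0.11, 0.10 and -0.04 over those genes.

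Ndufa4l2, Aldoc and Ddit4 had the widest ranges among the lines. Ndufa4l2 was at 0.96 and 1.22 in 129Ba1, 2.30 and 2.38 in 129Ba2 and 1.80 and 2.19 in BNa17, against 3.84 and 3.85 in 129C1 and 3.56 and 2.72 in Wt1. All lines made with the inhibitor were thus below both original-protocol lines. Ddit4 was at 5.31 and 5.63 in 129Ba1, 6.48 and 7.53 in 129Ba2 and 6.78 and 6.94 in BNa17, against 7.71 and 7.83 in 129C1 and 7.74 and 7.12 in Wt1. The arrays of 129Ba2 and Wt1 overlap for this gene. Hif1a ran the other way, at 2.30 and 2.08 in 129Ba1, 1.86 and 1.43 in 129Ba2 and 1.28 and 1.83 in BNa17, against 1.16 and 1.28 in 129C1 and 0.82 and 1.22 in Wt1.

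**Figure D4:**
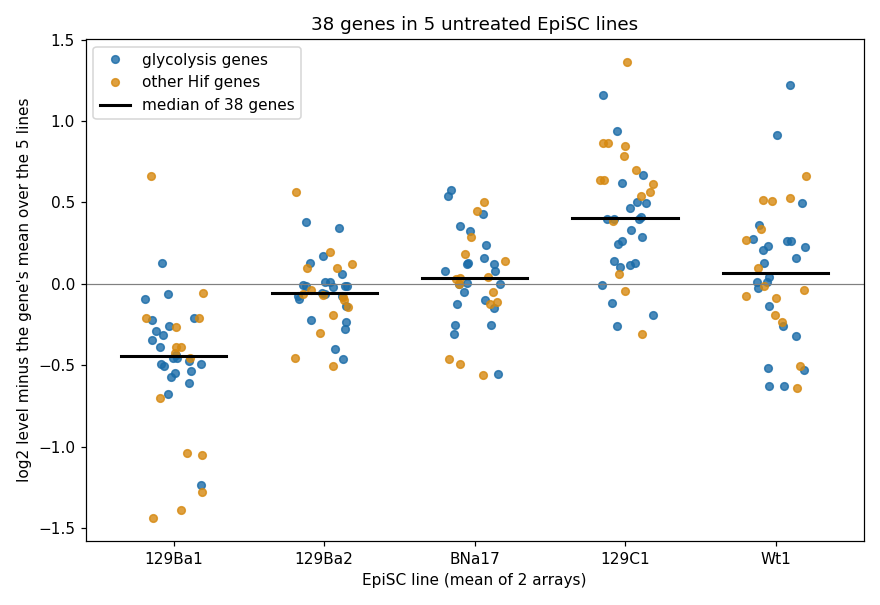
Log2 level of 38 members in the 5 untreated EpiSC lines, each relative to the mean of the lines, with a bar for the median of the members. Most points of 129Ba1 lie at the low end and most of 129C1 at the high end.

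Set against each other as kinds of line (3 made with the inhibitor against 2 by the original protocol), 0 of 39 members were called by limma, where 1.58% of all genes were (0.541% higher and 1.04% lower). At an unadjusted p under 0.05 there were 10 of 39 members, 7 lower and 3 higher in the inhibitor lines. Of all 14038 genes tested, 2423 were under that limit. Ndufa4l2 had the largest difference (-1.69 ± 0.44, adjusted p = 0.152), and Hif1a differed by 0.68 (adjusted p = 0.275). The median difference was -0.37 for the glycolysis genes and -0.47 for the other Hif genes, beside 0.07 over all genes. Of the members 32 of 39 were below 0, beside 6222 of all 14038 genes tested.

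Line 129C1 shares a slide with the 3 inhibitor lines, which allows a comparison within that slide, over arrays. There 8 members were lower in the inhibitor lines and 0 higher, with 11.2% of all genes called. They were Ndufa4l2 (-2.04 ± 0.33, adjusted p = 0.000431), Aldoc (-1.60), Pfkfb3 (-1.34), Ddit4 (-1.33), Egln3 (-1.32), Car9 (-1.22), Bnip3 (-1.07) and Ankrd37 (-1.02). Aldoc was at 2.93 and 3.09 in 129Ba1, 4.01 and 4.33 in 129Ba2 and 3.81 and 4.67 in BNa17, against 5.36 and 5.45 in 129C1. This comparison has a single original-protocol line, so the line and the protocol cannot be told apart in it, and its p-values are over arrays, not lines. Summed feeder marker levels were highest in 129Ba1 (8.18 and 7.84) and among the lowest in 129C1 (5.94 and 6.21), and were 7.10 and 7.45 in Wt1. Other marker lists were lower in the inhibitor lines: 3 of 3 tested trophoblast markers (median -2.32), 1 of 3 visceral endoderm markers (-0.70) and 1 of 3 blood markers (-2.49), with 0 of 3 primitive streak markers called (-2.64). The part of these markers in the result was not tested. Of the related lists 1 further Hif gene was called between the kinds of line, Ndrg1, a stress-response gene, lower by 3.14 ± 0.29 on the log2 scale in the inhibitor lines (adjusted p = 0.0135). Hkdc1, a hexokinase relative, was at least 20.1-fold lower in the inhibitor lines, where it was below background on all 6 arrays (adjusted p = 0.00456).

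Treating 129C1 with IWP2 moved 0 of 39 members past the limma threshold, with 3.88% of all genes called (1.39% higher and 2.49% lower). At an unadjusted p under 0.05 there were 9 of 39 members, beside 2652 of all 15088 genes tested. Ldhb was at 5.83 and 6.24 with IWP2, against 5.20 and 5.26 without it (0.81 ± 0.19, adjusted p = 0.0214), higher on both arrays but under 2-fold. The medians were -0.03 for the glycolysis genes and -0.16 for the other Hif genes, beside -0.02 over all genes. Hif1a differed by -0.07 (adjusted p = 0.934), Slc2a1 by -0.22 (adjusted p = 0.701), Hk2 by -0.42 (adjusted p = 0.266) and Ldha by -0.27 (adjusted p = 0.545).

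The 2 IWP2 arrays were themselves apart on this list. The second was higher than the first for 34 of the 37 members above background everywhere, by a median of 0.39, while 41.3% of 10130 genes were higher on it (median -0.06). In Wt1 the second array was higher for 5 of the 37 (median -0.33), beside 43.2% of genes. In BNa17 it was higher for 28 (median 0.34), beside 49.2% of genes. Between the arrays of 129C1 without IWP2 the median gap was 0.04. Egln1 was at 1.30 and -1.39 on the IWP2 arrays, the widest gap of a tested member within a group. Treated and untreated 129C1 do not share a slide. Within the slide they share, IWP2-treated 129C1 differed from the untreated line Wt1 in 8 members, 6 higher and 2 lower, where 13.9% of genes were called, but there treatment and line cannot be told apart. Leaving out either IWP2 array gave 1 rise.

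In the embryo no member was called between E6.5 and E5.5, and 6 of 39 were between E7.5 and E6.5, among them Slc2a3 and Ddit4. The second count lies near the share of all genes called there (14.9%), so as a count it does not set the members apart. Between E6.5 and E5.5 epiblast 0 of 39 members were called by limma, where 4.86% of all genes were (2.70% higher and 2.16% lower). An unadjusted p under 0.05 was found for 5 of 39 members, beside 3399 of all 15088 genes tested. The medians were -0.03 for the glycolysis genes and 0.12 for the other Hif genes, beside 0.05 over all genes. Slc2a1, the widespread glucose transporter, was at 7.21 and 7.15 at E6.5, against 6.18 and 6.38 at E5.5 (0.91 ± 0.22, adjusted p = 0.0197), which is higher on both arrays and just under 2-fold. Pdk1 was at 1.52 and 1.41 at E6.5, against 2.26 and 2.20 at E5.5 (-0.76, not called).

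In E7.5 ectoderm, 4 members were higher and 2 lower than in E6.5 epiblast, against 14.9% of all genes called (6.30% higher and 8.56% lower). The medians were 0.10 and -0.25 for the glycolysis and other Hif genes, beside -0.07 over all genes. Slc2a3, the high-affinity glucose transporter of neurons and early embryos, was at 7.54 and 7.07 at E7.5, against 4.63 and 4.79 at E6.5 (2.59 ± 0.35, 6.03-fold, adjusted p = 0.000126). Its E5.5 levels were 4.16 and 4.80, so the E5.5 and E6.5 arrays overlapped and the E7.5 arrays stood apart. Its partner Slc2a1 was at 7.66 and 7.58 at E7.5, against 7.21 and 7.15 at E6.5, and was not called (0.44, adjusted p = 0.159). Ddit4 was at 5.93 and 6.42 at E7.5, against 3.84 and 3.94 at E6.5 (2.28 ± 0.29, adjusted p = 6.63e-05), and 3.83 and 3.54 at E5.5.

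Pfkfb4, which sets the level of an activator of phosphofructokinase, was at -0.53 and -0.32 at E7.5, against -1.74 and -1.60 at E6.5 (1.24 ± 0.17, adjusted p = 0.000139), while its partner Pfkfb3 was at 1.77 and 1.85, against 2.00 and 2.15. Vegfa was at 0.51 and 0.10 at E7.5, against -0.95 and -0.46 at E6.5 (1.01 ± 0.27, adjusted p = 0.0127). Ankrd37, an ankyrin repeat protein, was at -0.11 and 0.27 at E7.5, against 1.30 and 1.17 (-1.16 ± 0.21, adjusted p = 0.00117), and Adm at -2.10 and -2.44, against -1.71 and -0.76 (-1.03 ± 0.36, adjusted p = 0.0436). Bnip3 was at 6.27 and 6.20 at E5.5, 5.72 and 5.61 at E6.5 and 4.70 and 5.02 at E7.5, with the arrays of the stages in separate ranges. Its E7.5 level differed from that at E6.5 by -0.80 (adjusted p = 0.0356), under 2-fold. Pdk1 was at 2.26 and 2.20 at E5.5, 1.52 and 1.41 at E6.5 and 0.52 and 0.95 at E7.5, also in separate ranges and not called between E7.5 and E6.5 (-0.74, adjusted p = 0.0627).

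The E7.5 arrays lay on another slide than those of E6.5, so slide and stage cannot be told apart. Without the first E7.5 array Vegfa, Adm and Ankrd37 were not called. The fall of Adm was lost under 7 of 14 alternatives, with differences of -1.51 to -0.45. Visceral endoderm markers moved with the stages: 6 of 6 were lower at E7.5 (median difference -5.82), where 4 of the 6, Afp, Ttr, Apoa1 and Cubn, were below background on both arrays. Their summed level was 2.66 and 6.12 at E5.5, 3.83 and 4.41 at E6.5 and 0.33 and 0.86 at E7.5. Of the 7 feeder fibroblast markers, genes that embryonic mesenchyme also expresses, 5 were higher at E7.5 than at E6.5 (median 1.25), and 2 of 6 immediate early genes were lower. Their part in the result was not tested. Of 38 further Hif genes 4 were higher and 5 lower at E7.5, the largest being Cited2, which competes with Hif factors for their coactivator (2.90 ± 0.24, adjusted p = 1.22e-06).

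EpiSC lines were then set against embryonic tissue of each stage. Cultured EpiSCs had more RNA for Vegfa, Adm, Car9, P4ha1 and Eno2 than each embryonic stage did, although some of these calls depend on the processing or on single arrays. Against E5.5 epiblast 10 members were higher and 1 lower, beside 24.1% of all genes called (14.7% higher and 9.39% lower). Against E6.5 epiblast 10 were higher and 3 lower, beside 22.0% (12.9% higher and 9.06% lower). Against E7.5 ectoderm 6 were higher and 1 lower, beside 17.6% (11.4% higher and 6.16% lower). The glycolysis genes had median differences of -0.31, -0.28 and -0.20 in these comparisons, and the other Hif genes 0.65, 0.58 and 0.90, beside -0.04, -0.10 and 0.00 over all genes. These comparisons share the EpiSC lines, so their values are given side by side only. Their p-values pool the spread between lines with that between replicate embryo arrays, which may be technical.

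Vegfa, at 1.32 to 2.39 on the EpiSC arrays (median 1.76), was at -1.23 and -0.55 at E5.5, -0.95 and -0.46 at E6.5 and 0.51 and 0.10 at E7.5. Every EpiSC array was above every embryo array, and the differences were 2.66 ± 0.28, 2.48 ± 0.28 and 1.47 ± 0.28 (adjusted p = 0.000172, 0.000337 and 0.00533). Adm, at 0.19 to 1.37 on the EpiSC arrays (median 0.72), was at -1.76 and -2.52 at E5.5, -1.71 and -0.76 at E6.5 and -2.10 and -2.44 at E7.5. It too did not overlap (2.93 ± 0.34, 2.02 ± 0.34 and 3.06 ± 0.34, adjusted p = 0.000254, 0.00201 and 0.000351). Eno2, at -0.46 to 1.62 on the EpiSC arrays, was at -2.34 and -2.19 at E5.5, -1.76 and -1.73 at E6.5 and -2.38 and -2.07 at E7.5. Its differences of 2.48 ± 0.42, 1.96 ± 0.42 and 2.44 ± 0.42 were all called (adjusted p = 0.00185, 0.00664 and 0.00303).

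Car9, well above background on all EpiSC arrays and 0 of 6 embryo arrays, was at least 8.26-fold higher than at E5.5, at least 11.2-fold higher than at E6.5 and at least 5.83-fold higher than at E7.5 (adjusted p = 0.000503, 0.000246 and 0.00104). P4ha1 was higher by 1.67, 1.07 and 1.47 (each ± 0.28, adjusted p = 0.0018, 0.0161 and 0.00489). Its call against E6.5 was lost in 6 of 28 alternatives, with differences down to 0.58. Against E7.5 it was lost with normexp and with the mean of all probes, with differences down to 0.85. Ddit4 was higher by 3.22 ± 0.51 than at E5.5 and by 3.02 ± 0.51 than at E6.5 (adjusted p = 0.00125 and 0.0021), and Slc2a3 by 2.02 ± 0.32 and 1.79 ± 0.32 (adjusted p = 0.0014 and 0.00298). Neither was called against E7.5, the stage at which both were higher than at E6.5.

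The falls named the other glucose entry genes and Hif1a. Slc2a1, at 4.89 to 6.52 on the EpiSC arrays (median 5.83), was lower than at E6.5 by 1.34 ± 0.36 and than at E7.5 by 1.78 ± 0.36 on the log2 scale (adjusted p = 0.0183 and 0.00661). Against E5.5 it was not called (-0.43, adjusted p = 0.366). Hk2 was lower than at E6.5 (-1.0 ± 0.22, adjusted p = 0.00745), while its partner Hk1 was higher than at E5.5 (1.05 ± 0.23, adjusted p = 0.00689) and E6.5 (1.14 ± 0.23, adjusted p = 0.00532). The call of Hk2 was lost in 10 of 28 alternatives, with differences of -1.13 to -0.83. Those of Hk1 were lost in 5 of 28 against E5.5 and 3 of 28 against E6.5, including normexp and the mean of all probes at both stages. Hif1a, at 0.82 to 2.30 on the EpiSC arrays (median 1.36), was at 2.46 and 2.53 at E5.5, 2.68 and 2.78 at E6.5 and 2.05 and 2.30 at E7.5, and was lower than at E6.5 (-1.20 ± 0.28, adjusted p = 0.00928). Against E5.5 the difference was -0.97 ± 0.28 (adjusted p = 0.0215), just under 2-fold. Pdk1 was lower than at E5.5 (-1.40 ± 0.27, adjusted p = 0.00354) and was not called against E6.5 (-0.64, adjusted p = 0.0895) or E7.5 (0.10, adjusted p = 0.812).

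Feeder fibroblast markers moved with these comparisons: 7 of 7 were higher in EpiSC lines than at E5.5 (median 5.45) and E6.5 (5.70), and 5 of 7 than at E7.5 (4.97). Their summed level was 5.94 to 8.18 on the EpiSC arrays, against 2.67 and 2.55 at E5.5, 2.61 and 2.56 at E6.5 and 3.85 and 3.86 at E7.5, where 3, 2 and 1 of the 7 were below background on both arrays (Postn among them at each stage). Visceral endoderm markers were lower in EpiSC lines than at E5.5 and E6.5 for 5 of 6, and 2, 2 and 3 of 6 immediate early genes were higher than at E5.5, E6.5 and E7.5. Their part in the result was not tested. Lines and embryos share no slide in this comparison. With either E6.5 array left out, the falls against E6.5 and the rises of Eno2, P4ha1, P4ha2 and Pfkfb4 were not called. The rise of Hk1 was not called without the second E6.5 array. Of 38 further Hif genes 13, 10 and 9 were higher and 1, 2 and 3 lower than at E5.5, E6.5 and E7.5. Lox, which cross-links collagen, was below background at every stage and at least 10.1-fold, 13.6-fold and 7.10-fold higher in EpiSCs (adjusted p = 0.000192, 0.000142 and 0.000423). Between pyruvate and the mitochondria 3 genes were higher at each stage, the carrier subunits Mpc1 and Mpc2 and the kinase Pdk4, by 2.05, 1.41 and 2.48 relative to E5.5 (adjusted p = 0.000507, 0.00114 and 0.000363).

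**Figure D5:**
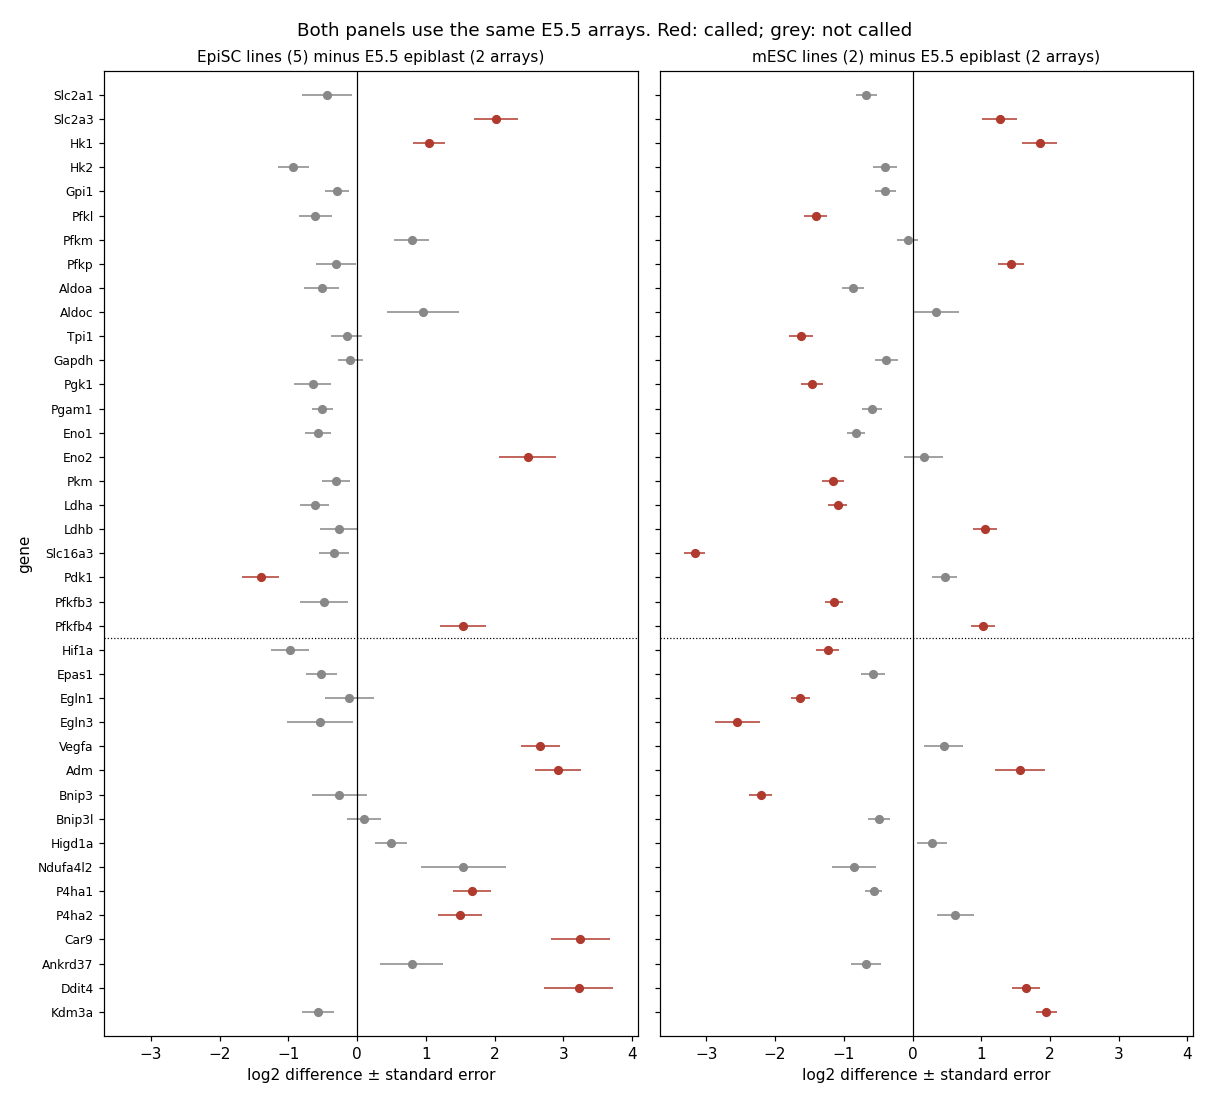
Log2 difference of each tested member with its standard error, for EpiSC lines over E5.5 epiblast and for mESC lines over E5.5 epiblast. Red points are called and grey ones are not, both panels share the E5.5 arrays, and Car9 for EpiSCs and Egln1 for mESCs are drawn at measured differences that include a group below background. Vegfa, Adm, Eno2 and Ddit4 lie far above 0 for EpiSCs, and Slc16a3, Egln3 and Bnip3 lie furthest below 0 for mESCs.

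The naive lines departed from E5.5 epiblast in the main glycolytic chain as well. Of 38 members tested, 8 were higher and 11 lower in mESC lines, against 31.9% of all genes called (16.9% higher and 15.0% lower). The glycolysis genes gave 5 rises and 7 falls of 23 (median -0.40) and the other Hif genes 3 rises and 4 falls of 15 (median -0.57), beside 0.03 over all genes. Slc16a3, at 4.41 and 4.40 in J1 and 4.44 and 4.05 in R1, was at 7.52 and 7.47 at E5.5 (-3.17 ± 0.15, adjusted p = 2.44e-05). Bnip3, at 4.25 and 4.06 in J1 and 4.12 and 3.68 in R1, was at 6.27 and 6.20 at E5.5 (-2.21 ± 0.17, adjusted p = 0.000122). Tpi1 was at 7.61 and 7.70 at E5.5, above all mESC arrays (-1.62 ± 0.17, adjusted p = 0.000457).

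Further falls were those of Pgk1 (-1.46 ± 0.16), the first enzyme of the chain to yield ATP, Pfkl (-1.41 ± 0.17), the liver phosphofructokinase, and Ldha (-1.09 ± 0.14, adjusted p = 0.001). Hif1a was lower by 1.24 ± 0.17 on the log2 scale (adjusted p = 0.00124). Both hydroxylases were lower too, Egln3 by 2.55 ± 0.32 (adjusted p = 0.000904) and Egln1, below background on all 4 mESC arrays, at least 2.71-fold (adjusted p = 0.000173). Kdm3a, by contrast, was at 4.99 and 4.82 in J1 and 4.89 and 4.67 in R1, against 3.04 and 2.75 at E5.5 (1.95 ± 0.15, adjusted p = 0.000135). Hk1 (1.85 ± 0.25), Ddit4 (1.65 ± 0.21), Adm (1.56 ± 0.36), Pfkp (1.43 ± 0.18), Slc2a3 (1.27 ± 0.25), Ldhb (1.06 ± 0.17) and Pfkfb4 (1.02 ± 0.17) were also higher in mESCs. A dimmer Pfkp probe, above background on 21 arrays, differed by -0.22. Thus by the brightest probes 1 partner was higher and another lower in the phosphofructokinases and in the lactate dehydrogenases.

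The p-values against E5.5 pool the spread between mESC lines with that between replicate embryo arrays, which may be technical. Lines and E5.5 arrays shared no slide. J1 and E7.5 ectoderm do, and in that comparison, added after the data were seen, 5 members were higher and 9 lower in J1, with 32.6% of all genes called. Slc16a3 (-2.49), Pfkl (-1.82), Pgk1 (-1.61) and Tpi1 (-1.56) were lower and Kdm3a (2.32), Pfkp (1.58) and Hk1 (1.48) higher there too. Bnip3 (-0.71), Hif1a (-0.76), Ldha (-0.57), Pfkfb3 (-0.75), Egln1 and Ldhb (0.33), called against E5.5, were not called there. Ddit4, Pfkfb4 and Slc2a3, higher in mESCs than at E5.5, were below E7.5 in J1 (-0.95, -0.61 and -1.59). All 7 feeder markers were higher in mESC lines than at E5.5 (median 4.97) and 6 of 6 visceral endoderm markers were lower, and 4 of 6 immediate early genes were higher. Their part in the result was not tested.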

How the data were processed

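Total RNA was labelled with Cy3 and hybridised to 24 single-colour Agilent arrays. The deposited scanner files hold intensity values per spot, which the authors read with Agilent Feature Extraction 10.5.1.1, per the submitters' processing notes. The authors' deposited table of log2 values of the same arrays (lowest correlation with the own array 0.999991) served for checking only. The processed signal, already background-subtracted, was taken as log2 minus the 75th percentile of each array, without control spots and with spots of a probe averaged. This scaling sets each array's level, so a shift of all RNA is not seen. A gene entered a test when, in 1 or more groups of the fit, both arrays showed its brightest probe well above background. limma 3.58.1 in R 4.3.3, tested on simulated data, gave 2-sided tests with Benjamini-Hochberg adjusted p over all genes. Comparisons between kinds of line used line means (5 EpiSC, 2 mESC lines), with the embryo arrays where these entered. In fits with embryo arrays, line means and single embryo arrays shared 1 estimate of spread per gene. IWP2, 2i and stage comparisons used all 24 arrays as 12 groups. "At least" folds set a group below background at the lowest signal well above background on its arrays, or at its own signal where higher. The normexp alternative used the median spot signal, because the files used here hold no mean signal column. Other alternatives were quantile scaling, the authors' table, no fold minimum, all probes of a gene averaged, slide and replicate blocks, and leaving out arrays or lines.

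The members and related lists were chosen with earlier results of these data known. In each comparison at most the 8 largest called rises and falls were named, with partners of the same step, and Hif1a, Epas1, Slc2a1, Hk2, Ldha, Pdk1 and Vegfa could be named in any comparison. From related lists at most 4 called genes each were named. Gapdh, Pgam1 and Gpi1, Tpi1 and Adm in EpiSCs against mESCs, P4ha1 against E6.5 epiblast, and Bnip3 over the stages were named after their values were seen.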

Additional observations from a re-analysis of the deposited data

How the results depend on the processing

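Each call of a member was set against every alternative, and the counts here are of pairs of a call and an alternative. Leaving out arrays or lines aside, 838 pairs kept direction and side of the threshold, 45 were no longer called and 3 reversed. Some pairs could hardly change: dropping the fold minimum cannot lose a call, and the authors' table holds nearly the same values. On leaving out an array or a line, 977 pairs were kept and 81 were not called. The 3 reversals were those of Ddit4 (-0.95), Pfkfb4 (-0.61) and Slc2a3 (-1.59) when J1 was set against E7.5 ectoderm on 1 slide in place of mESC lines against E5.5 epiblast, a setting added after the data were seen, which changes the stage as well. Counts of members called follow, each with the share of all genes called under the same setting in parentheses. Inhibitor lines against original-protocol lines, 0 over lines, gave 7 (1590 of 15088 genes) with arrays as replicates and 8 (11.2%) within 1 slide against 129C1. IWP2 against no IWP2 gave 1 (5.61%) without a fold minimum and 8 (13.9%) within 1 slide against Wt1. J1 in 2i gave 18 (26.2%) without a fold minimum. E6.5 against E5.5 gave 1 with normexp (1.99%), with the mean of all probes (4.46%) and without a fold minimum (8.92%), and E7.5 against E6.5 gave 3 (5.76%) with normexp. Without a fold minimum EpiSC lines gave 17 (38.9%) against E5.5 and 11 (28.8%) against E7.5. Causes of these moves were not tested beyond what each setting itself changes. With normexp, Car9 and Egln1 in EpiSCs against mESCs and Hif1a and P4ha1 in 2i were not called. Quantile scaling also lost Hif1a and P4ha1 in 2i.

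Leaving out arrays or lines gave 0 to 1 calls for the kinds of EpiSC line (1 fall without 129C1), 0 to 1 for IWP2, 6 to 17 for EpiSCs against mESCs, 5 to 9 for 2i, 0 to 0 for E6.5 against E5.5 and 3 to 5 for E7.5 against E6.5. EpiSCs gave 9 to 15 against E5.5, 5 to 15 against E6.5 and 5 to 11 against E7.5 (11 without 129Ba1), and mESCs 17 to 19 against E5.5. An arm left with 1 array or line was assumed to vary like the other groups. Shares of all genes called were not set beside the counts from leaving out arrays or lines, here or above. These counts therefore do not show whether the members moved more than other genes.

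Replicate numbers did not pair the arrays (correlations of deviations from -0.34 to 0.42 between same-numbered arrays of compared groups). With the replicate block the counts were 7 (1589 of 15088 genes) for the kinds of EpiSC line, 0 (3.79%) for IWP2, 17 (30.6%) for EpiSCs against mESCs, 10 (13.1%) for 2i, 0 (4.79%) for E6.5, 5 (14.8%) for E7.5, 12 (27.9%), 14 (25.8%) and 10 (21.9%) for EpiSCs against E5.5, E6.5 and E7.5, and 19 (32%) for mESCs against E5.5. For the comparisons that use line means, the replicate block was fitted over arrays, so it also changed the unit from lines to arrays. Arrays as replicates without the block gave the same member counts in those comparisons. A random slide block was not run for 2i, IWP2 and the stages, where each group lies on 1 slide. It left 0 calls between the kinds of EpiSC line. Signal over background limits Car9, Egln1 and Mxi1, and 2 arrays a group limit all precision.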
